A study of Mus musculus with 20 samples.

Results

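Smpdl3b encodes an acid-sphingomyelinase-like phosphodiesterase that is anchored to the outer face of the plasma membrane, and it was among the genes with the largest increase when bone-marrow-derived mouse eosinophils met the alarm cytokine IL-33. It was examined together with 7 further genes of sphingolipid turnover, namely its relative Smpdl3a, the sphingomyelinases Smpd1 and Smpd2, the acid ceramidase Asah1, the sphingosine kinases Sphk1 and Sphk2, and the sphingosine 1-phosphate lyase Sgpl1. These 8 genes were chosen by gene symbol from the 17771 genes with an unambiguous probe set on the array. Earlier results of these data were known when they were chosen. Each had exactly 1 such probe set, and all 8 were bright enough to be among the 11766 genes tested. Smpdl3b was selected on its rise with IL-33 in wild-type cells, so its changes are described here without a test.

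The cells were eosinophils grown from the bone marrow of Dusp5+/+ (wild-type) and Dusp5-/- (knockout) mice, with 5 mice of each genotype. The protein of Dusp5 is a phosphatase of the nucleus that inactivates the MAP kinases ERK1 and ERK2. On day 12 of culture the cells stayed in medium alone or received IL-33 at 25 ng/ml for 4 hours, which gave 4 groups of 5 arrays: untreated wild type, untreated knockout, IL-33 wild type and IL-33 knockout. Each mouse was taken to have given cells to both treatments, and neither the strain, the age of the mice nor the deleted part of Dusp5 is given in the sources used here. Levels are the deposited log2 values as mean ± SD over 5 arrays, and changes are log2 differences ± SE from limma, with p-values adjusted by Benjamini-Hochberg over all tested genes. A gene is said to have risen or fallen only at an adjusted p under 0.05. Precision is limited by the 5 arrays of a group, and a level on one probe set is not comparable with that on another.

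Sphingolipids are membrane lipids built on a sphingoid base. Sphingomyelinases split sphingomyelin into phosphocholine and ceramide, ceramidases release sphingosine from ceramide, and sphingosine kinases phosphorylate it to sphingosine 1-phosphate. This last lipid is exported and acts on cell-surface receptors that direct leukocyte traffic, and the lyase Sgpl1 degrades it irreversibly. In mouse macrophages the membrane enzyme Smpdl3b is known to restrain Toll-like receptor signalling.

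Eosinophil genes gave signal on every array, and Dusp5 separated the labelled genotypes. The granule genes Epx and Prg2 lay at 12.85 to 13.81 and 13.62 to 13.89, Siglecf at 9.37 to 10.89 and the eotaxin receptor gene Ccr3 at 7.62 to 9.76 over the 20 arrays. Dusp5 was at 7.85 or more on every wild-type array and at 5.15 or less on every knockout array. Genes listed as markers of other cell types also gave signal. All 10 monocyte, macrophage and dendritic cell markers on the array, all 9 neutrophil markers and 6 of 8 mast cell and basophil markers exceeded the 40th percentile of each array. Adgre1 read 10.88 to 12.63, Ngp 10.92 to 12.65 and Cpa3 12.26 to 12.90. So did 3 of 4 erythroid and megakaryocyte markers, with Pf4 at 11.06 to 11.78 and Itga2b at 9.92 to 10.72, and 5 of 6 stem and progenitor markers. Only 2 of 6 lymphocyte markers did so. Whether these signals came from other cells or from the eosinophils themselves was not tested. In such bulk cultures, fewer cells of a type and less RNA per cell cannot be told apart.

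Smpdl3b, on chromosome 4 (probe set 1417300_at), was dim in every untreated culture and bright in every IL-33 culture. The untreated wild-type arrays read 3.91, 3.75, 4.81, 4.33 and 3.88, and the IL-33 arrays of the same mice read 8.83, 8.63, 9.44, 8.97 and 9.20. In knockout cells the untreated arrays read 3.86, 4.12, 4.07, 4.18 and 4.06, and the IL-33 arrays 8.73, 8.57, 8.60, 8.92 and 8.96. The untreated and IL-33 arrays lay far apart in both genotypes, and the IL-33 ranges of the genotypes overlapped. The untreated values stood just above the 40th percentile that served as the limit for dim genes (3.56 to 3.68), so the fold changes below rest on dim untreated signals. The group means were 4.14 ± 0.44 and 9.01 ± 0.32 (SD, n = 5) in wild-type cells, a difference of 4.87 ± 0.17 or 29.3-fold, given as a description only. In knockout cells Smpdl3b went from 4.06 ± 0.12 to 8.76 ± 0.18, by 4.70 ± 0.17 or 25.9-fold. The SE is pooled over all groups, with the wild-type arrays that served the selection among them. This change is therefore also given as a description only. Within single mice the change ran from 4.62 to 5.31 in the wild-type cultures and from 4.45 to 4.90 in the knockout cultures. All 10 mice thus moved in 1 direction by a similar amount.

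**Figure D1:**
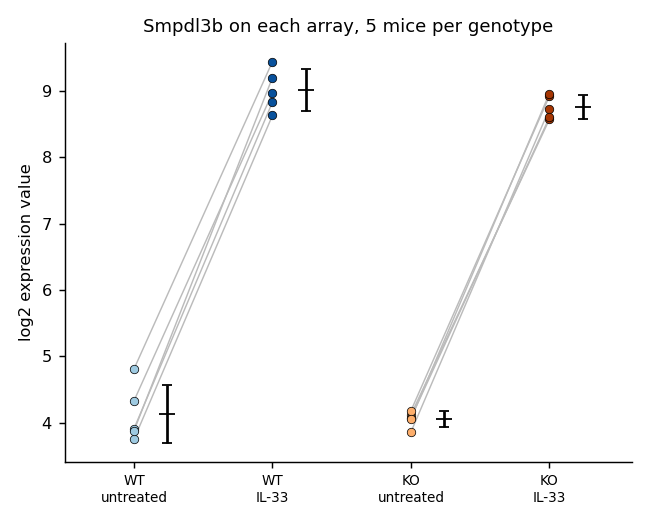
Smpdl3b log2 expression value (vertical axis) on each of the 20 arrays, in 4 groups of 5 (horizontal axis). Dots are arrays, grey lines join the untreated and IL-33 arrays of a mouse, and black bars give the mean ± SD; every IL-33 array reads 8.57 or more and every untreated array 4.81 or less.

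The sequence before the annotated start of Smpdl3b is shown because this gene moved most among the 8, beside those of Sphk1, the other gene of the set that went up, and Smpd1, the member that went down most. Each holds the 250 bases upstream of the start, 5′ to 3′ on the gene's strand, from RefSeq (GRCm38.p6), and capitals mark a match to the NF-kB consensus on either strand.
Smpdl3b, chr4:132757172-132757421, minus strand: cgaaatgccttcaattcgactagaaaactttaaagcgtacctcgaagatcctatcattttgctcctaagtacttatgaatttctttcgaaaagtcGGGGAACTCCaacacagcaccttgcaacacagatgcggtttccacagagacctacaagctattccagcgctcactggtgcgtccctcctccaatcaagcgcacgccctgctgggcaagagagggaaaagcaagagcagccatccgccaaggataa
Sphk1, chr11:116530850-116531099, plus strand: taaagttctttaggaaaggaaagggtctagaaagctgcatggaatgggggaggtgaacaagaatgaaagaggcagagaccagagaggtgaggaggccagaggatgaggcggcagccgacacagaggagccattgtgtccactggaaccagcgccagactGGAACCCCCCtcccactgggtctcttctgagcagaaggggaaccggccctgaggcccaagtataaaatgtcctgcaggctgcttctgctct
Smpd1, chr7:105554110-105554359, plus strand: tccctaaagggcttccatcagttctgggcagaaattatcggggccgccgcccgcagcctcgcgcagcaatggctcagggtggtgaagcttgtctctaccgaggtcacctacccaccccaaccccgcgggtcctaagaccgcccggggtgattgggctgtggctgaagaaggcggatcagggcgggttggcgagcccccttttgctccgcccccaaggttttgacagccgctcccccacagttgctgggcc

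The Smpdl3b window holds 1 NF-kB match, 155 to 146 bases before the start, and no copy of TGANTCA (an AP-1 site) or CACGTG (an E-box). The Sphk1 window shown, the most upstream of 5 annotated for that gene, holds 1 NF-kB match at 91 to 82 bases before its start. It lies inside the RefSeq span of the gene (116530836 to 116536675), so it precedes an annotated start but not the whole gene. The other 4 Sphk1 windows hold no NF-kB match; 2 of them hold TGANTCA and 2 CACGTG. None of these motifs occurs in the Smpd1 window, nor in those of Sphk2 and Sgpl1, and the Smpd2 window holds CACGTG. Searched on both strands, the NF-kB consensus was found in 7.25% of 32841 annotated windows of this length, TGANTCA in 6.75% and CACGTG in 6.02%. The matches describe letters only, and binding was not measured. Entries were found for 6 of the 8 genes, those other than Smpdl3a and Asah1.

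The relatives of Smpdl3b went the opposite way. Smpdl3a (chromosome 10, 1416635_at), which encodes a secreted phosphodiesterase of nucleotides, stood at 10.88 ± 0.22 untreated and 10.27 ± 0.24 after IL-33 in wild-type cells. In knockout cells it stood at 11.19 ± 0.29 and 10.37 ± 0.31. Although replicates of a group were spread widely, no untreated array lay below an IL-33 array of its genotype. Smpdl3a fell by 0.61 ± 0.16 (1.53-fold, adjusted p = 0.00369) in wild-type and by 0.82 ± 0.16 (1.76-fold, adjusted p = 2.1e-04) in knockout cells, and in single mice by 0.50 to 0.90.

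Smpd1 (chromosome 7, 1448621_a_at) encodes the lysosomal acid sphingomyelinase and fell most among the 8 genes. Its untreated wild-type arrays read 9.63, 9.39, 9.51, 9.60 and 9.58, against 8.65, 8.42, 8.65, 8.73 and 8.65 after IL-33. The untreated knockout arrays read 9.64, 9.27, 9.72, 9.48 and 9.33, against 8.46, 8.29, 8.35, 8.34 and 8.09. All IL-33 arrays were below all untreated arrays, and the lowest value of the 20 was in a knockout culture. The level fell from 9.54 ± 0.10 to 8.62 ± 0.12 in wild-type cells, a log2 difference of -0.92 ± 0.09 or 1.9-fold (adjusted p = 7.6e-08). In knockout cells it fell from 9.49 ± 0.19 to 8.31 ± 0.13, a log2 difference of -1.18 ± 0.09 or 2.27-fold (adjusted p = 1.4e-09).

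Smpd2 (chromosome 10, 1416999_at), a neutral sphingomyelinase, showed a smaller decrease. It read 6.46 to 6.71 untreated and 6.23 to 6.41 after IL-33 in wild-type cells, and 6.43 to 6.72 and 5.95 to 6.26 in knockout cells. The ranges did not overlap in either genotype, although in wild-type cells the gap between them was narrow. Smpd2 fell by 0.22 ± 0.07 in wild-type cells (1.16-fold, adjusted p = 0.0221) and by 0.44 ± 0.07 in knockout cells (1.36-fold, adjusted p = 4.6e-05). The wild-type call was lost after quantile normalization (-0.10, adjusted p = 0.316). It was also lost without wild-type array 2 (adjusted p = 0.0523) or 4 (0.0649) of the untreated group, and without array 3 of IL-33 wild type (0.0576).

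Asah1 (chromosome 8, 1416735_at) encodes acid ceramidase, the lysosomal enzyme that acts after Smpd1. Its replicates were the tightest of the 8 genes. Untreated arrays read 10.89, 10.87, 10.88, 10.82 and 10.94 in wild-type and 10.87, 10.89, 10.84, 10.90 and 10.88 in knockout cells. After IL-33 they read 10.56, 10.56, 10.60, 10.61 and 10.58 in wild-type and 10.53, 10.45, 10.50, 10.44 and 10.33 in knockout cells. The treatments were fully separated, and after IL-33 the knockout arrays were all below the wild-type arrays. Asah1 fell by 0.30 ± 0.05 in wild-type cells (1.23-fold, adjusted p = 5.9e-05) and by 0.42 ± 0.05 in knockout cells (1.34-fold, adjusted p = 5.7e-07).

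The sphingosine kinases differed from each other. Sphk1 (chromosome 11, 1451596_a_at), the mainly cytosolic kinase that is inducible in many cell types, read 3.71, 3.77, 3.92, 4.00 and 3.59 on untreated wild-type arrays and 4.03, 4.12, 4.36, 4.20 and 4.46 after IL-33. In knockout cells it read 3.89, 3.89, 3.96, 3.72 and 3.92 untreated and 4.45, 4.39, 4.80, 4.45 and 4.76 after IL-33. The IL-33 arrays were above the untreated arrays of their genotype, by a narrow margin in wild-type cells. Sphk1 rose by 0.44 ± 0.10 in wild-type cells (1.35-fold, adjusted p = 0.00156) and by 0.70 ± 0.10 in knockout cells (1.62-fold, adjusted p = 9.4e-06). These levels lay near the limit for dim genes, and Sphk1 was not testable with that limit at the 60th percentile.

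Sphk2 (chromosome 7, 1426230_at), the kinase found largely in the nucleus and at internal membranes, did not pass with IL-33 in either genotype. Leaving out Smpdl3b, which was not tested, it was the only such member of the set. Wild-type arrays read 5.00 to 5.24 untreated and 4.92 to 5.29 after IL-33, and knockout arrays 4.97 to 5.41 and 4.92 to 5.31. These ranges overlapped throughout, and 2 mice of each genotype went up while 3 went down. The log2 difference was -0.06 in both genotypes, with a 95% interval from -0.26 to 0.14 in each (adjusted p = 0.618 in wild-type and 0.642 in knockout cells), so a change of the size seen for Sphk1 in wild-type cells lay outside the interval.

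Sgpl1 (chromosome 10, 1415892_at), the lyase that ends the pathway, read 9.22 to 9.46 untreated and 8.81 to 9.15 after IL-33 in wild-type cells. In knockout cells it read 9.25 to 9.41 untreated and 8.66 to 8.89 after IL-33. Again no range overlapped within a genotype. Sgpl1 fell by 0.34 ± 0.07 (1.26-fold, adjusted p = 6.1e-04) and by 0.51 ± 0.07 (1.43-fold, adjusted p = 4.0e-06) in wild-type and knockout cells.

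**Figure D2:**
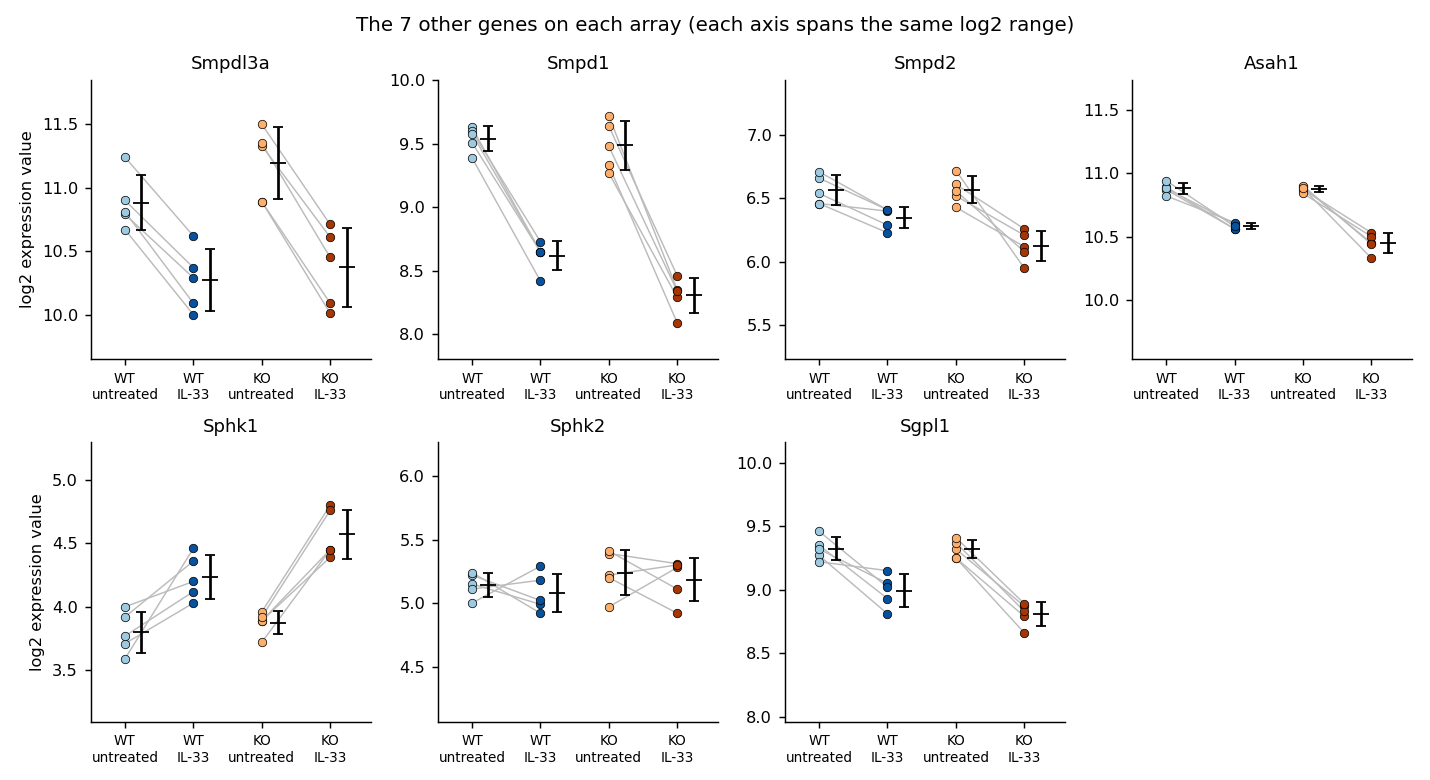
Log2 expression value (vertical axes, all spanning the same number of log2 units) of Smpdl3a, Smpd1, Smpd2, Asah1, Sphk1, Sphk2 and Sgpl1 on each array of the 4 groups (horizontal axes). Dots are arrays, grey lines join arrays of a mouse, and bars give the mean ± SD (n = 5); 5 genes step down with IL-33 in both genotypes, Sphk1 steps up and Sphk2 has crossing lines.

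Leaving Smpdl3b out, 1 of the 7 genes rose, 5 fell and 1 did not pass in wild-type cells, and the counts were the same in knockout cells. Of all tested genes 42.7% passed in wild-type cells, 16.1% as rises and 26.7% as falls. In knockout cells 52.2% passed, 18.9% as rises and 33.2% as falls. Over the 7 genes the median log2 difference came to -0.30 in wild-type and -0.44 in knockout cells, beside -0.052 and -0.077 over all tested genes. Of these 7 genes, all but Sphk2 moved in 1 direction in all 10 mice, which was so for 48.6% of all tested genes. The same 6 had untreated and IL-33 ranges that did not overlap, as had 28.3% of all tested genes in wild-type and 38.5% in knockout cells. Both conditions together were met by 24.2% of all tested genes. The mean level of 6 stem and progenitor markers also went down with IL-33, from 5.23 to 5.64 untreated to 4.56 to 4.95 in wild-type cells and from 5.02 to 5.61 to 4.25 to 4.68 in knockout cells. That of 8 eosinophil markers went from 11.11 to 11.23 to 10.82 to 11.01 and from 11.07 to 11.25 to 10.75 to 10.88, while the other marker lists had overlapping ranges. The part of these shifts in the changes above was not tested.

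**Figure D3:**
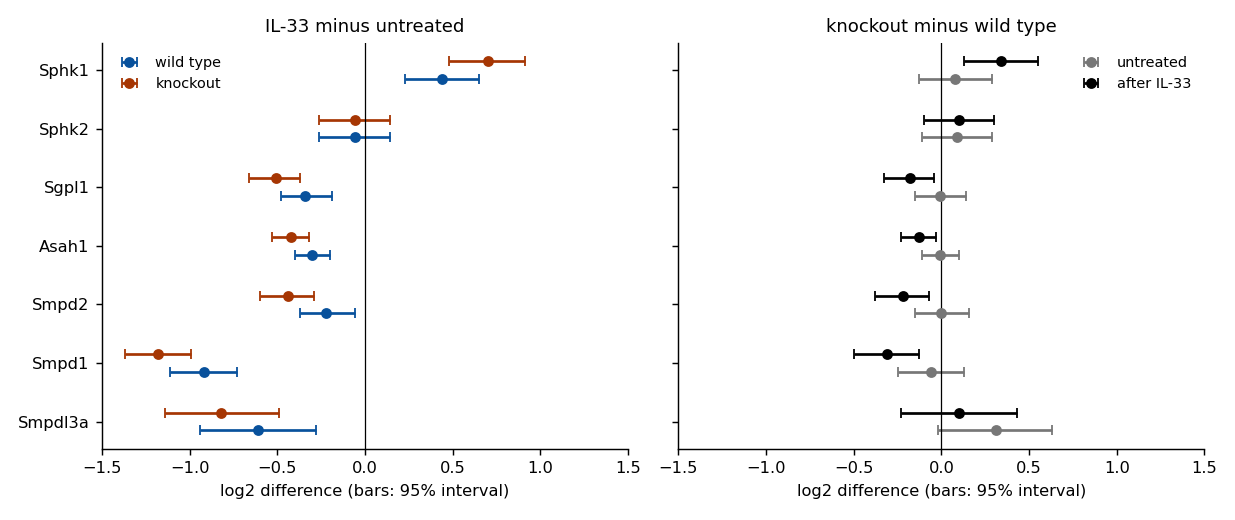
Log2 differences of the 7 genes other than Smpdl3b (vertical axis), as IL-33 minus untreated in each genotype (left) and knockout minus wild type in each treatment (right). Dots are limma estimates and bars 95% intervals; with IL-33 only the Sphk2 intervals cross 0, and untreated genotype differences all include 0.

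The next comparison asked whether loss of Dusp5 altered these genes at rest. In untreated cells none of the 7 genes other than Smpdl3b passed, where 0.0255% of all tested genes did. None of them had an unadjusted p under 0.05, against 12.9% (1517) of all tested genes, and all their genotype ranges overlapped, where those of 1.1% of all tested genes did not. Every comparison that holds wild-type arrays shares them with the contrast that selected Smpdl3b, so its differences between genotypes, untreated, after IL-33 and in the IL-33 change, are given as descriptions without a test. Untreated, Smpdl3b differed by -0.08 ± 0.17. The largest value of the other genes was that of Smpdl3a, 0.31 ± 0.16 higher in knockout cells (95% interval -0.02 to 0.63, adjusted p = 0.388). Asah1 had the narrowest interval, from -0.11 to 0.10.

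After IL-33 none of the 7 genes passed either, where 2.21% of all tested genes did (0.986% higher and 1.22% lower in knockout cells). All tested genes called numbered 260, and 514 with each mouse as a random replicate block. They numbered 444 with the dim limit at the 60th percentile, 1659 without IL-33 wild-type array 2 and 1049 without IL-33 knockout array 1. At an unadjusted p under 0.05, 5 of the 7 genes differed, as did 24.1% (2836) of all tested genes. Smpd1 was lower in knockout cells by 0.31 ± 0.09 (95% interval of the difference -0.50 to -0.13, adjusted p = 0.0655). It passed with that block (adjusted p = 0.0456), with the dim limit at the 60th percentile (0.0460), without IL-33 wild-type array 2 (0.0186) and without IL-33 knockout array 1 (0.0321). Smpd2 stood 0.22 ± 0.07 lower in knockout cells (adjusted p = 0.0908, and 0.0451 without IL-33 knockout array 1). Sphk1 stood 0.34 ± 0.10 higher (adjusted p = 0.0739, and 0.0430 without the same array). Sgpl1 stood 0.18 ± 0.07 lower (adjusted p = 0.126, and 0.0346 without IL-33 wild-type array 2) and Asah1 0.13 ± 0.05 lower (adjusted p = 0.124). The genotype ranges did not overlap for Asah1, 10.33 to 10.53 in knockout against 10.56 to 10.61 in wild-type cells, and overlapped for the other 6; 3.32% of all tested genes had no overlap here. Smpdl3b differed by -0.26 ± 0.17, Smpdl3a by 0.10 (95% interval -0.23 to 0.43) and Sphk2 by 0.10 (-0.10 to 0.30). Stem and progenitor markers had a list mean of 4.25 to 4.68 in knockout and 4.56 to 4.95 in wild-type cells after IL-33, and 1 of their 5 tested genes was called lower in knockout cells; the part of this in the differences was not tested.

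The test of the difference between the IL-33 changes of the genotypes called none of the 7 genes and 0% of all tested genes in limma, where 4.83% (568) had an unadjusted p under 0.05. This fit leaves out the pairing of arrays by mouse. With each mouse as a random replicate block 26 of all tested genes were called, and with a fixed block 0. None of the 7 genes was among them: the lowest adjusted p, that of Smpd1, was 0.227 with the random and 0.205 with the fixed block. Without a block, Smpd2 alone of the 7 had an unadjusted p under 0.05 (0.0445), with a difference of -0.23 ± 0.11 (95% interval -0.44 to -0.01). The estimates were -0.26 ± 0.13 for Smpd1, -0.21 ± 0.22 for Smpdl3a, -0.12 ± 0.07 for Asah1, 0.26 ± 0.14 for Sphk1, 0.01 ± 0.14 for Sphk2 and -0.18 ± 0.10 for Sgpl1, each with an adjusted p of 0.999. Within mice, Smpdl3a changed by -0.61 ± 0.09 (SD, n = 5) in wild-type and by -0.82 ± 0.07 in knockout cells, and its adjusted p was 0.582 with the random and 0.235 with the fixed block. The Smpdl3b estimate was -0.18 ± 0.24.

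The wider pathway was described with 67 further sphingolipid genes, of which 60 were on the array and 48 were bright enough to be tested. In wild-type cells 4 rose, 26 fell and 18 did not pass, with a median of -0.25, and in knockout cells 5 rose, 28 fell and 15 did not pass, with a median of -0.38. These counts stand beside the shares of all tested genes given above. The list, too, was drawn up with earlier results of these data known.

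In de novo ceramide synthesis 1 of 10 tested genes rose and 6 fell in each genotype. Kdsr, the reductase of the second step, fell by 0.93 ± 0.08 in wild-type (adjusted p = 1.3e-08) and by 1.17 ± 0.08 in knockout cells (adjusted p = 3.0e-10). The ceramide synthase gene Cers4 fell by 0.51 ± 0.14 in wild-type (adjusted p = 0.00647) and by 0.94 ± 0.14 in knockout cells (adjusted p = 1.6e-05). Degs1, the desaturase that forms ceramide, was the gene of this group that rose, by 0.22 ± 0.05 and 0.18 ± 0.05.

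In sphingomyelin synthesis and ceramide transfer 1 of 6 genes rose and 4 fell in each genotype. Sgms2, the plasma membrane sphingomyelin synthase, had the largest rise of the list, from 6.75 ± 0.34 to 7.70 ± 0.23 in wild-type and from 6.62 ± 0.08 to 7.53 ± 0.17 in knockout cells (0.95 ± 0.14 with adjusted p = 1.2e-05, and 0.91 ± 0.14 with adjusted p = 1.4e-05). Samd8, which makes ceramide phosphoethanolamine, fell by 0.76 ± 0.07 (adjusted p = 1.6e-08) in wild-type and by 0.84 ± 0.07 (adjusted p = 2.8e-09) in knockout cells.

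Of 7 other sphingomyelinase and ceramidase genes 1 fell in wild-type cells, and 1 rose and 2 fell in knockout cells. The alkaline ceramidase Acer1 rose by 0.39 ± 0.11 in knockout cells (adjusted p = 0.00443) and stood at 0.17 ± 0.11 in wild-type cells (adjusted p = 0.207), and the difference between these was not past the test (0.22 ± 0.15, adjusted p = 0.999).

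Genes of sphingosine 1-phosphate turnover, transport and reception had the lowest median, -0.55 in wild-type and -0.72 in knockout cells, with 6 of 9 falling and none rising in each genotype. S1pr1, the receptor that guides lymphocyte exit from lymphoid organs, went from 6.31 ± 0.45 to 4.87 ± 0.18 in wild-type and from 6.72 ± 0.34 to 4.86 ± 0.20 in knockout cells (-1.44 ± 0.18 with adjusted p = 2.8e-06, and -1.86 ± 0.18 with adjusted p = 5.6e-08). Spns2, the exporter of sphingosine 1-phosphate, fell by 1.09 ± 0.07 and 1.23 ± 0.07 (adjusted p = 1.2e-10 and 1.3e-11). The leukocyte receptor S1pr4 fell by 1.06 ± 0.08 and 0.96 ± 0.08 (adjusted p = 2.1e-09 and 5.9e-09). Aldh3a2, which oxidises the aldehyde released by Sgpl1, fell by 0.87 ± 0.20 and 1.02 ± 0.20.

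Glycosphingolipid synthesis was mixed, with 2 of 7 genes rising in each genotype, 2 falling in wild-type cells and 3 falling in knockout cells. The lactosylceramide synthases B4galt5 (0.50 ± 0.08 and 0.65 ± 0.08) and B4galt6 (0.50 ± 0.12 and 0.36 ± 0.12) rose in wild-type and knockout cells, and the GM3 synthase St3gal5 fell (-0.90 ± 0.16 and -1.04 ± 0.16). In knockout cells the B4galt6 call (adjusted p = 0.0159) was lost without untreated knockout array 1 (0.0558) or 3 (0.0547). Of 9 genes grouped under lysosomal glycosphingolipid breakdown 7 fell and none rose in each genotype. The largest fall there was that of Gba2, the glucosylceramidase that works outside the lysosome (-0.98 ± 0.09 and -1.05 ± 0.09).

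**Figure D4:**
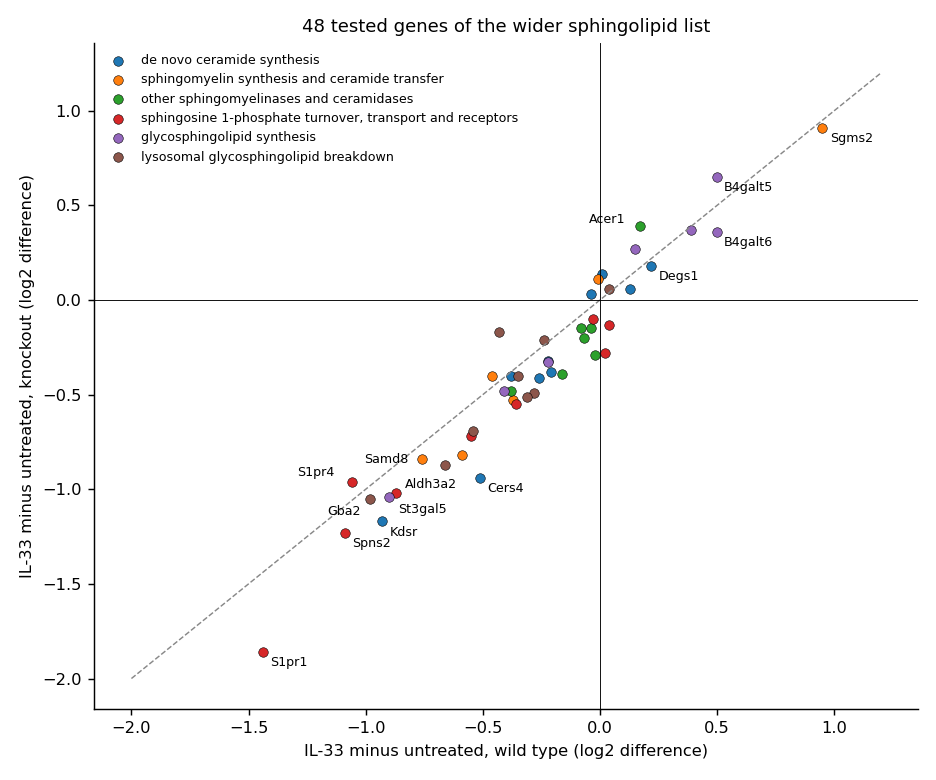
IL-33 minus untreated log2 difference of the 48 tested genes of the wider sphingolipid list, in wild-type (horizontal axis) and knockout cells (vertical axis), coloured by role. The dashed line marks equal changes; Sgms2 lies at 0.95 and 0.91 at the upper right and S1pr1 at -1.44 and -1.86 at the lower left.

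Between genotypes none of the 48 genes passed in untreated cells, where 6 had an unadjusted p under 0.05, beside 12.9% of all tested genes. The lowest adjusted p, 0.383, was shared by 7 genes, with differences from -0.34 (Acer3) to 0.41 (S1pr1 among them). Of these, the lowest unadjusted p were those of Smpd5, a mitochondria-associated neutral sphingomyelinase (0.30 ± 0.10), and Cers6 (0.18 ± 0.07). After IL-33 2 of the 48 genes passed, where 2.21% of all tested genes did. An unadjusted p under 0.05 was found for 11 of the 48, beside 24.1% of all tested genes. Of the 2 called, B4galt5 was 0.34 ± 0.08 higher (adjusted p = 0.0428) and the alkaline ceramidase Acer3 was 0.60 ± 0.14 lower in knockout cells (adjusted p = 0.0355). The Acer3 levels were 7.51 ± 0.29 in wild-type and 6.90 ± 0.14 in knockout cells after IL-33, and 7.53 ± 0.31 and 7.19 ± 0.16 untreated. Both calls were lost when only the arrays of the 2 groups compared were fitted (adjusted p = 0.118 for B4galt5 and 0.0804 for Acer3). The B4galt5 call was also lost with no limit for dim genes (adjusted p = 0.0604) and that of Acer3 with quantile normalization (0.0505). Acer3 did not pass without any 1 of arrays 1, 3, 4 or 5 of IL-33 wild type or arrays 2 to 5 of IL-33 knockout (adjusted p from 0.0661 to 0.0963). The same arrays left out 1 at a time ended the B4galt5 call (adjusted p from 0.0671 to 0.112), as did untreated wild-type arrays 1, 4 and 5 and untreated knockout arrays 2 to 5 (0.0508 to 0.0548). The difference of the IL-33 changes called none of the 48 genes in limma, and the 2 with an unadjusted p under 0.05 were Kdsr (-0.24 ± 0.11) and Cers4 (-0.43 ± 0.20), each with an adjusted p of 0.999.

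The tested genes whose pattern over the 20 arrays was closest to Smpdl3b were identified by the root mean square log2 difference after each gene was centred on its own mean. They were Acod1 (0.40), which encodes the itaconate-producing enzyme, the cytokine gene Il6 (0.45), the kinase gene Pim2 (0.51), the inhibitory receptor gene Pilra (0.54) and the RNase gene Zc3h12a (0.59). With IL-33 they changed by 4.41, 5.06, 5.59, 3.95 and 3.81 in wild-type cells and by 4.80, 5.30, 5.72, 4.10 and 3.98 in knockout cells, in the same order. After IL-33 their differences of knockout minus wild type were 0.44, 0.23, -0.03, 0.32 and 0.07, again in that order. None of these was called, and Smpdl3b differed by -0.26. The likeness is a description over arrays on which all of these genes follow the treatment.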

How the data were processed

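Total RNA was labelled as biotinylated cRNA with a 3' IVT kit, per the labels, and hybridised to 1-colour Affymetrix arrays. The authors deposited log2 expression values for 20630 probe sets on 20 arrays. The log2 scale was read from the values (1.27 to 13.99, array medians 4.25 to 4.32). The sources used here do not say how the authors corrected background, summarized or normalized. The values were used as deposited, so comparisons depend on that scaling.

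Platform annotation gave 17826 probe sets 1 gene symbol, 91 several and 2711 none, apart from 2 controls, and 17675 of the first kind matched a RefSeq gene by number (GRCm38.p6). Those with 1 symbol covered 17771 genes. Where a gene had several (54 genes), the probe set with the highest mean was used. Genes above the array's 40th percentile (3.56 to 3.68) on at least 5 arrays were tested. That percentile stands in for background, which the table does not give.

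The labels of genotype and treatment defined the groups. The titles of the IL-33 samples carry Dusp5 in place of the treatment, so the treatment was read from its own label. A single linear model, fitted to the 20 arrays with lmFit and eBayes of limma 3.58.1 (R 4.3.3), had a mean for each group, and p-values were adjusted by Benjamini-Hochberg over 11766 genes. The procedure was tested on simulated data. Replicate numbers are shared by the untreated and IL-33 groups of a genotype. Deviations from the group means correlated at 0.262 to 0.783 between arrays of the same number and genotype, and all 10 untreated arrays correlated best with the IL-33 array of their number. It was therefore treated as the mouse. Mice were numbered within a genotype and not paired across genotypes. The reported fit has no term for the mouse and takes the 20 arrays as independent, with 16 residual degrees of freedom. Its p-values thus measure the spread between arrays within the 4 groups, from 5 mice per genotype. They do not use the pairing by mouse, although the random block put the correlation within a mouse at 0.464. The alternatives were no dim filter, the 60th percentile, quantile normalization, the mean of all probe sets of a gene, eBayes with a trend and robust, fitting only the groups compared, the mouse as a fixed or random block, and leaving out each array.

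The 8 genes and the lists were chosen with earlier results of these data known. Of the wider list, the text names up to 8 called genes per direction with the largest change in the IL-33 comparisons. In the genotype comparisons it names up to 5 called genes per direction, or the 2 lowest adjusted p where none was called (ties by the unadjusted p). Values of genes so named are also given in the other comparisons. The 5 genes most like Smpdl3b, Dusp5 and the markers Epx, Prg2, Siglecf and Ccr3, with up to 3 of each other marker list, could be named too.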

Additional observations from a re-analysis of the deposited data

Results flagged for a closer look

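Among the 32 groups of 5 arrays formed by the 8 genes and 4 groups, 2 held an array far from the other 4, where chance alone gives about 1 in 20. Smpd1 read 8.42 on IL-33 wild-type array 2, against 8.65 to 8.73 on the other 4, and without this array its genotype difference after IL-33 passed in limma (adjusted p = 0.0186). Leaving this array out also took the calls of that comparison over all tested genes from 260 to 1659, so the gain was not particular to Smpd1. Sphk1 read 3.72 on untreated knockout array 4, against 3.89 to 3.96 on the other 4.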

How the results depend on the processing

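The IL-33 calls of the 7 genes other than Smpdl3b kept their direction and their side of the threshold under all alternatives run, with 2 exceptions. These were the Smpd2 call in wild-type cells and the sign of the uncalled Sphk2 value. Sphk1 could not be tested with the dim limit at the 60th percentile. For the genotype comparison after IL-33, none of the same 7 genes passed in the reported fit. With the dim limit at the 60th percentile 1 passed, 1 with each mouse as a random replicate block, and 0 to 3 without single arrays. Of the wider list 2 passed, against 1 with no dim filter, 1 with quantile normalization, 0 with only the groups compared, and 0 to 7 without single arrays. Over all genes 260 passed, against 152 with no dim filter, 444 with the 60th percentile, 24 with only the groups compared and 514 with the random replicate block. Without single arrays this count ran from 33 (without IL-33 wild-type array 5) to 1659 (without IL-33 wild-type array 2), and it was 1049 without IL-33 knockout array 1. The difference of the IL-33 changes called 0 genes in limma (568 at an unadjusted p under 0.05), 26 with the random replicate block and 0 to 3 without single arrays. The untreated genotype comparison called 3, and 3 to 15 without single arrays. Signs turned for uncalled values only. With quantile normalization the Sphk2 change in knockout cells was 0.058 and the untreated Sgpl1 genotype difference 0.000. Without single arrays the untreated genotype difference ran from -0.176 to 0.089 for Smpdl3b, from -0.036 to 0.039 for Smpd2, from -0.032 to 0.029 for Sgpl1 and from -0.022 to 0.008 for Asah1. The Sphk2 change in knockout cells ran from -0.124 to 0.009 and its difference between genotypes from -0.059 to 0.074. The replicate block changed no other call of the 7 genes. The cause was not tested for any of these. Dim signal limits Sphk1 and untreated Smpdl3b.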
